A study of Rattus norvegicus with 93 samples.

Results

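The resident marrow macrophage genes are 10 rat genes: the complement genes C1qa, C1qb and C1qc, the scavenger and uptake receptors Cd163, Mrc1 and Folr2, the iron exporter Slc40a1, the surface receptor Adgre1, and the receptor kinases Axl and Mertk. They were taken from the array's annotation as probe sets that carry only that gene's symbol, and a gene with several probe sets is represented by the probe set with the highest mean over all 93 arrays. All 10 genes were measured, out of 7810 genes that have such a probe set. They were measured in marrow flushed out of 1 femur, the left, of Sprague-Dawley rats, all male and 8 weeks old at dosing, with 1 array per rat. Each rat received 2 intravenous infusions of 30 min, in sequence, and marrow was taken 1, 6 or 24 h after dosing.

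Topotecan, which traps topoisomerase I on DNA, was infused at 4.7 mg/kg. The dose of oxaliplatin, whose platinum binds to DNA bases and joins them, was 15 mg/kg. Saline (NaCl) was topotecan's vehicle and dextrose in water (D5W) was that of oxaliplatin. The vehicle groups were NaCl/D5W and D5W/NaCl, named in the order of infusion. Topotecan alone was given as topotecan/D5W and D5W/topotecan, oxaliplatin alone as oxaliplatin/NaCl and NaCl/oxaliplatin, and the combinations as topotecan/oxaliplatin and oxaliplatin/topotecan. Every group held 4 rats at each time, except that 3 were available for D5W/NaCl and topotecan/D5W at 24 h and for oxaliplatin/NaCl at 6 h. Each treatment was compared with the vehicle group that had its dextrose or saline in the matching place (NaCl/D5W for topotecan/D5W, topotecan/oxaliplatin and NaCl/oxaliplatin, and D5W/NaCl for the others). A single dose level of each drug was used, so no relation to dose can be given.

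Macrophages that live in the marrow sit in the centre of erythroblastic islands, where maturing red cells surround them. They engulf the nuclei that erythroblasts expel, take up dying cells and worn-out red cells, and return the iron to plasma. C1qa, C1qb and C1qc encode the chains of C1q, the recognition molecule of the classical complement pathway, which also coats dying cells. Cd163 takes up haemoglobin bound to haptoglobin, Mrc1 is the mannose receptor, Folr2 is a folate receptor of tissue macrophages, and Slc40a1 encodes ferroportin, the cell's iron exporter. Adgre1 encodes the F4/80 antigen. Axl and Mertk, with Tyro3, form the TAM family of receptor kinases, which bind dying cells through the bridging ligands Gas6 and Pros1. Several of these genes are not confined to macrophages: Mrc1 is also made by sinusoidal endothelium, Slc40a1 by erythroid precursors and Axl by stromal cells.

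The C1q genes lie next to each other on chromosome 5 of the GRCr8 rat assembly, in the order C1qb, C1qc and C1qa, between bases 154402276 and 154419933, a span of 17658 bases. The RefSeq promoter table held a window for 9 of the 10 genes, C1qc being the exception. Windows of 250 bases before the RefSeq start are shown for C1qa, C1qb, Mrc1 and Folr2, the genes whose window lay wholly outside the annotated gene. The windows of Cd163, Adgre1 and Axl overlapped the annotated gene by 23, 42 and 114 bases, and those of Slc40a1 and Mertk lay wholly inside it. These windows are counted below but not shown. Capitals mark GAGGAA, a core recognised by the myeloid factor PU.1, and TGCTGA, a core of the sites of Maf factors, or the reverse complement of either. The windows are chr5:154419934-154420183 on the minus strand for C1qa, chr5:154407828-154408077 on the minus strand for C1qb, chr17:82157475-82157724 on the plus strand for Mrc1 and chr1:165630383-165630632 on the minus strand for Folr2, each written 5′ to 3′ and ending at the base before the start.
C1qa: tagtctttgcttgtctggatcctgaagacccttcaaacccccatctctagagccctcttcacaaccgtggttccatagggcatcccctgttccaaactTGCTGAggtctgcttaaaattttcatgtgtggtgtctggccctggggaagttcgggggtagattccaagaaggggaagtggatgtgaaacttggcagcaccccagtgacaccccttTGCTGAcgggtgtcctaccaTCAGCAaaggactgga
C1qb: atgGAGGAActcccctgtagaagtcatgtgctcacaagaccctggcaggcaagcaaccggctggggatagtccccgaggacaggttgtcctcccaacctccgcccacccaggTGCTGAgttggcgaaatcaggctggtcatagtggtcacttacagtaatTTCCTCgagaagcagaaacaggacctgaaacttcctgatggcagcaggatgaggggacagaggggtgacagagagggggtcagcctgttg
Mrc1: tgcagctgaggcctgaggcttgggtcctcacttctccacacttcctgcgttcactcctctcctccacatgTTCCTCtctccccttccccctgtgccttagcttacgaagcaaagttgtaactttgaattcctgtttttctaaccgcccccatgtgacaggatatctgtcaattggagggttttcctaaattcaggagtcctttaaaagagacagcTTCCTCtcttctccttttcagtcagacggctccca
Folr2: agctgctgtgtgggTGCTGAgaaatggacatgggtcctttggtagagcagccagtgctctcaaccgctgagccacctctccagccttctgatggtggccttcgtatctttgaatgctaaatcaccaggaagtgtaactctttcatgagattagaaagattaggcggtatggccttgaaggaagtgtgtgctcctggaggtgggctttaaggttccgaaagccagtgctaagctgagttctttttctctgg

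GAGGAA on either strand was present in 4 of the 9 windows (C1qb, Mrc1, Adgre1 and Axl) and in 23.3% of 33465 windows of the same length. TGCTGA was present in 4 of 9 (C1qa with 3 copies, C1qb, Folr2 and Adgre1) and in 15.1% of all windows. The E-box CACGTG of the lysosomal factors Mitf and Tfeb was in 0 of 9 windows and 5.59% of all, and the AP-1 letters TGANTCA in 0 of 9 and 6.34%. The interferon-stimulated response element, searched as its repeated GAAA core, was present in 1 of 9, Adgre1, and in 3.41% of all windows. These matches describe letters in the windows only, and the windows were not tested as a set.

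The array values are log2 signals, and a level of a probe set can be compared between rats but not with the level of another probe set. Array medians ran from 8.79 to 9.30 and correlations between arrays from 0.831 to 0.995. In 3 arrays skeletal muscle genes stood over 2 log2 units above the median array: rats 41 and 42 of oxaliplatin/NaCl at 24 h and rat 52 of topotecan/oxaliplatin at 6 h, with 3.24, 3.19 and 4.19. Calls that were lost without them are given with and without them. In vehicle rats the means of granulocyte precursor genes ran from 8.64 (Gfi1) to 14.7 (S100a9). Those of erythroid genes ran from 9.97 (Ank1) to 14.3 (Ahsp), and those of further macrophage genes from 6.32 (C3ar1) to 12.3 (Selenop). Marco, Vsig4, Siglec1, Timd4, Trem2 and Slc11a1, also macrophage genes, have no probe set of a single symbol in the table analysed here.

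In the 23 vehicle rats the median log2 signal was 12.03 for Slc40a1, 11.63 for C1qa, 11.20 for C1qc, 10.80 for C1qb, 10.09 for Mrc1, 9.93 for Axl, 9.38 for Cd163, 9.06 for Folr2, 7.79 for Mertk and 7.60 for Adgre1. The median SD within a group of rats was smallest for Slc40a1, 0.13, and largest for Mertk, 0.30. Adgre1 and Mertk varied most between rats of a group, and their probe sets lay at percentiles 18.7 and 20.6 of mean signal in the table, near its dim end. The mean over the vehicle rats of a time was 10.69, 10.65 and 10.95 for C1qb at 1, 6 and 24 h and 7.77, 7.82 and 7.70 for Mertk, so that each comparison was made within a time.

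At 24 h the macrophage genes stood above vehicle in every treatment. A gene was called where its Benjamini-Hochberg adjusted p in limma, over all 12532 probe sets of a comparison, was under 0.01. By that rule 9 of 10 genes were higher in topotecan/D5W, where 16.1% of all probe sets were called higher and 17.3% lower. The count was 9 of 10 in D5W/topotecan (all probe sets 18.1% higher, 18.3% lower), 9 of 10 in oxaliplatin/NaCl (19.6%, 26.4%) and 10 of 10 in NaCl/oxaliplatin (24.9%, 30.2%). It was 10 of 10 in topotecan/oxaliplatin (25.9%, 35.2%) and 9 of 10 in oxaliplatin/topotecan (21.8%, 33.3%). No gene of the set was lower in any treatment at this time.

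Most of these rises were below 2-fold. The median log2 difference from vehicle over the 10 genes was 0.74 in topotecan/D5W, 0.91 in D5W/topotecan, 0.76 in oxaliplatin/NaCl, 0.93 in NaCl/oxaliplatin, 0.87 in topotecan/oxaliplatin and 0.64 in oxaliplatin/topotecan. Over all probe sets the medians were 0.03, 0.01, -0.04, -0.03, -0.10 and -0.11 in that order. Every treated rat lay above every vehicle rat for all 10 genes in each treatment but D5W/topotecan, where this held for 9. The share of all probe sets with such full separation was 25.7% in topotecan/D5W, 21.5% in D5W/topotecan, 26.1% in oxaliplatin/NaCl, 28.6% in NaCl/oxaliplatin, 26.9% in topotecan/oxaliplatin and 26.3% in oxaliplatin/topotecan. Called changes above 2-fold were few: 0, 4, 2, 4, 4 and 1 genes in the same order.

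**Figure D1:**
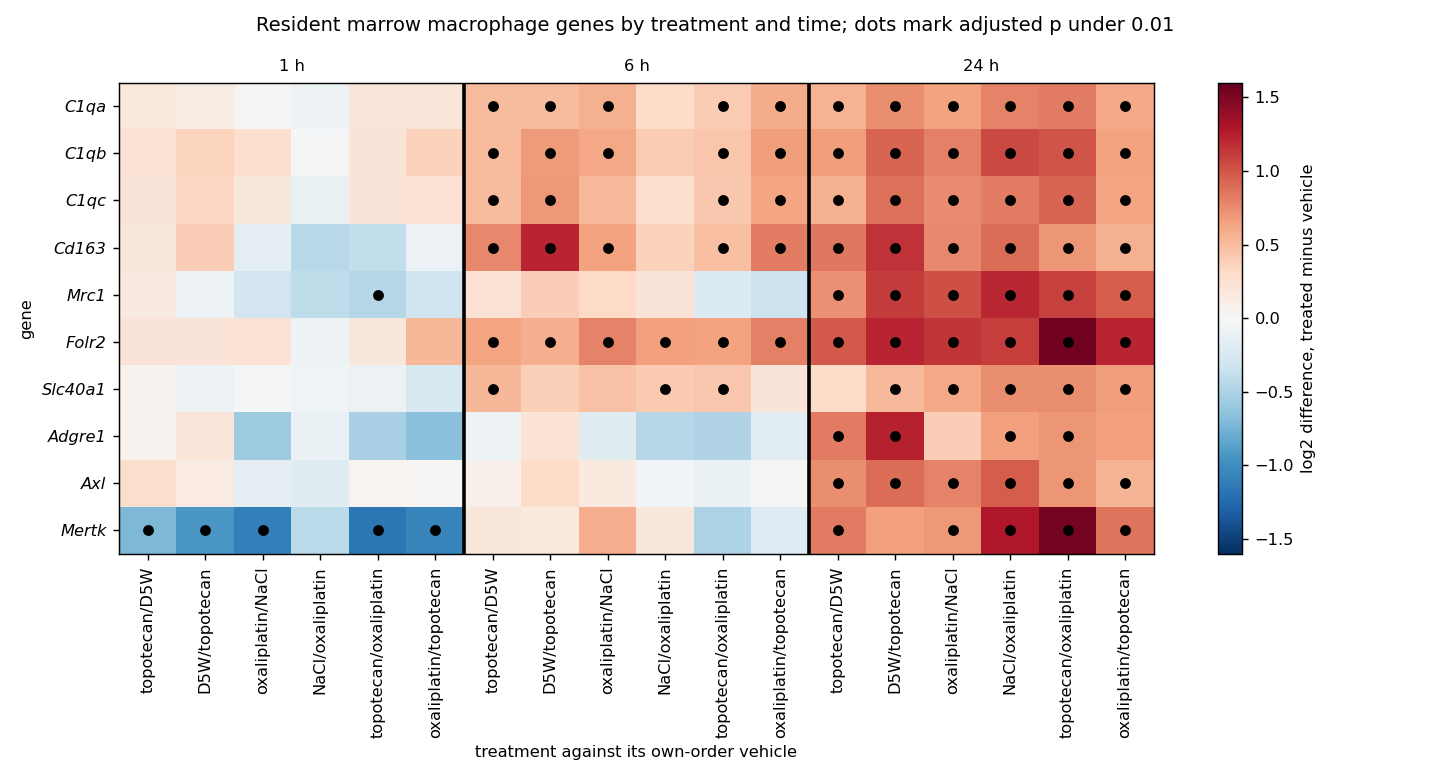
Log2 difference of each of the 10 genes (rows) from own-order vehicle in the 6 treatments at 1, 6 and 24 h (columns). Red is higher, blue lower, and dots mark adjusted p under 0.01: at 1 h Mertk is dotted blue in 5 of 6 treatments and Mrc1 in 1, and 56 of 60 cells are dotted red at 24 h.

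Whole flushed marrow was assayed, so a gain of macrophages, a loss of other cells around them and more RNA per macrophage cannot be told apart. Erythroid genes fell at the same time. In 11 of 12 erythroid genes the 24 h level was called lower in every treatment, and the list's median difference was -2.19, -2.71, -1.58, -1.67, -2.65 and -2.33, in the order used above. The mean log2 level over these 12 genes ran from 12.08 to 12.50 in the 7 vehicle rats and from 9.43 to 10.86 in the 23 treated rats. Its part in the macrophage result was not tested.

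All chains of C1q rose. At 24 h C1qa, C1qb and C1qc were called higher in all 6 treatments, by log2 differences of 0.55 to 0.82, 0.64 to 1.06 and 0.57 to 0.93. C1qb shows the pattern in each rat. Its signal was 10.96, 10.99, 10.58 and 10.86 in NaCl/D5W and 11.22, 11.01 and 11.04 in D5W/NaCl. With topotecan alone it was 11.70, 11.55 and 11.29 in topotecan/D5W and 11.47, 11.92, 12.40 and 12.31 in D5W/topotecan. With oxaliplatin alone it was 11.83, 11.78, 12.01 and 11.94 in oxaliplatin/NaCl and 11.78, 11.61, 12.08 and 12.16 in NaCl/oxaliplatin. None of these treated rats reached down to the vehicle range. In the combinations the values were 11.48, 11.96, 11.88 and 12.10 in topotecan/oxaliplatin and 11.80, 11.40, 12.07 and 11.65 in oxaliplatin/topotecan, again above vehicle throughout. The largest C1qb difference was 1.06 (SE 0.13, 2.09-fold, adjusted p = 1.08e-08) in NaCl/oxaliplatin and the smallest 0.64 (SE 0.17, 1.56-fold, adjusted p = 0.00153) in oxaliplatin/topotecan. Single rats decided 3 of these 18 calls. C1qa in topotecan/D5W fell to an adjusted p of up to 0.0352 without rat 5 of NaCl/D5W or rat 29 of topotecan/D5W, C1qc there to 0.0176 without rat 29, and C1qb in oxaliplatin/topotecan to 0.0115 without rat 71.

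The receptors for haemoglobin, mannose ligands and folate rose too. Folr2 had the largest called change of the set in topotecan/oxaliplatin, where the rats read 10.79, 10.63, 10.14 and 10.66 against 9.28, 8.90, 8.98 and 8.87 in NaCl/D5W. No rat of the combination came near the vehicle rats, and the difference was 1.54 (SE 0.13, 2.91-fold, adjusted p = 5.94e-13). Folr2 read 10.13, 9.88 and 9.95 in topotecan/D5W and 9.87, 9.85, 10.26 and 10.46 in NaCl/oxaliplatin. Against D5W/NaCl, at 9.04, 9.09 and 9.38, it read 9.97, 10.57, 10.98 and 10.04 in D5W/topotecan, 10.38, 10.46, 10.21 and 10.21 in oxaliplatin/NaCl and 10.07, 10.22, 10.73 and 10.55 in oxaliplatin/topotecan. The groups did not overlap in any of the 6 comparisons, all of which were called, and the smallest difference was 0.98 (SE 0.14, adjusted p = 6.15e-07) in topotecan/D5W.

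Mrc1 was called higher in all 6 treatments by 0.74 to 1.21. In NaCl/oxaliplatin it read 11.15, 11.05, 11.35 and 11.24 against 10.09, 9.99, 9.86 and 10.02 in NaCl/D5W, a difference of 1.21 (SE 0.15, 2.31-fold, adjusted p = 4.77e-09). Cd163 was also called in all 6, by 0.57 to 1.15. Its vehicle rats were tight, at 9.24, 9.30, 9.16 and 9.25 in NaCl/D5W and 9.29, 9.42 and 9.25 in D5W/NaCl. D5W/topotecan reached the highest Cd163 values, 10.00, 10.42, 10.94 and 10.53, and a difference of 1.15 (SE 0.16, 2.22-fold, adjusted p = 2.79e-07). Rat 59 of topotecan/oxaliplatin, at 9.45, was the treated rat nearest to vehicle, its fellows reading 10.24, 10.14 and 9.94. In oxaliplatin/topotecan the Cd163 call was lost without rat 17 or rat 24 of the 3 vehicle rats, with an adjusted p of up to 0.0135.

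Ferroportin rose by less than 2-fold. Slc40a1 was called higher in 5 of 6 treatments, by 0.52 to 0.74, and in topotecan/D5W it was 0.30 (SE 0.11) higher with an adjusted p of 0.0251. The rats of topotecan/oxaliplatin read 12.51, 12.62, 12.92 and 13.05 and those of NaCl/D5W 12.13, 12.10, 11.89 and 12.01, with no overlap. In D5W/topotecan the values were 12.10, 12.47, 12.73 and 12.90 against 12.03, 12.13 and 11.92 in D5W/NaCl. Rat 89 at 12.10 thus lay inside the vehicle range, the only case of overlap with the own vehicle group among the 60 gene and treatment pairs at 24 h. Leaving out any of rats 17, 24, 95 or 96 ended that call, with an adjusted p of up to 0.0258. Slc40a1 is the gene with 3 probe sets, of mean signal 12.28, 12.09 and 8.14. The probe set at 12.09 was called higher in all 6 treatments at 24 h, topotecan/D5W included (0.49, adjusted p = 8.08e-05), and the probe set at 8.14 in 3 of them.

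Adgre1, the F4/80 gene, was called higher in 4 of 6 treatments. D5W/topotecan gave 8.83, 8.64, 9.32 and 9.03 against 7.50, 7.75 and 7.94 in D5W/NaCl, a difference of 1.23 (SE 0.24, 2.34-fold, adjusted p = 6.75e-05). In oxaliplatin/NaCl the 4 rats read 8.15, 8.15, 8.20 and 7.99, all just above the same vehicle rats. That difference of 0.39 had a 95% interval of -0.10 to 0.88 and an adjusted p of 0.165. Oxaliplatin/topotecan gave 8.12, 8.19, 8.57 and 8.65 and a difference of 0.65 with an adjusted p of 0.0181. In NaCl/oxaliplatin the call (0.66, adjusted p = 0.00191) was lost without rat 5, with an adjusted p of 0.0132.

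The TAM receptors rose as well. Axl was called higher in all 6 treatments, by 0.55 to 0.97, with NaCl/oxaliplatin at 10.81, 10.60, 11.07 and 10.93 against 10.01, 9.94, 9.67 and 9.92 in NaCl/D5W. Mertk was called in 5 of 6. In topotecan/oxaliplatin it read 9.41, 9.08, 9.05 and 8.79 against 7.77, 7.70, 7.29 and 7.44 in NaCl/D5W, a difference of 1.54 (SE 0.22, 2.90-fold, adjusted p = 7.69e-08). Every rat of that combination lay more than a log2 unit above the highest NaCl/D5W rat. NaCl/oxaliplatin gave 9.11, 8.29, 8.94 and 8.98, and topotecan/D5W 8.59, 8.38 and 8.16. Against D5W/NaCl, at 7.91, 7.83 and 7.98, Mertk read 8.60, 8.82, 8.40 and 8.57 in oxaliplatin/NaCl, 8.89, 8.56, 8.71 and 8.92 in oxaliplatin/topotecan and 8.27, 8.38, 8.88 and 8.75 in D5W/topotecan. These groups did not overlap either, but D5W/topotecan was not called (0.66, adjusted p = 0.0114). Mertk in oxaliplatin/NaCl (0.69, adjusted p = 0.00694) was not called without the muscle-rich arrays of rats 41 and 42 (0.58, adjusted p = 0.0711), nor without any of rats 17, 18, 24 or 48. In topotecan/D5W the call was lost without rat 5, 6, 29 or 35, with an adjusted p of up to 0.0321, and that of Axl in oxaliplatin/topotecan without rat 24 or 71, with up to 0.0195. The exact two-sided permutation test of the rats gave 0.0286, the smallest p that these group sizes allow, for 50 of the 60 gene and treatment pairs at 24 h, and at most 0.0857 for the others.

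**Figure D2:**
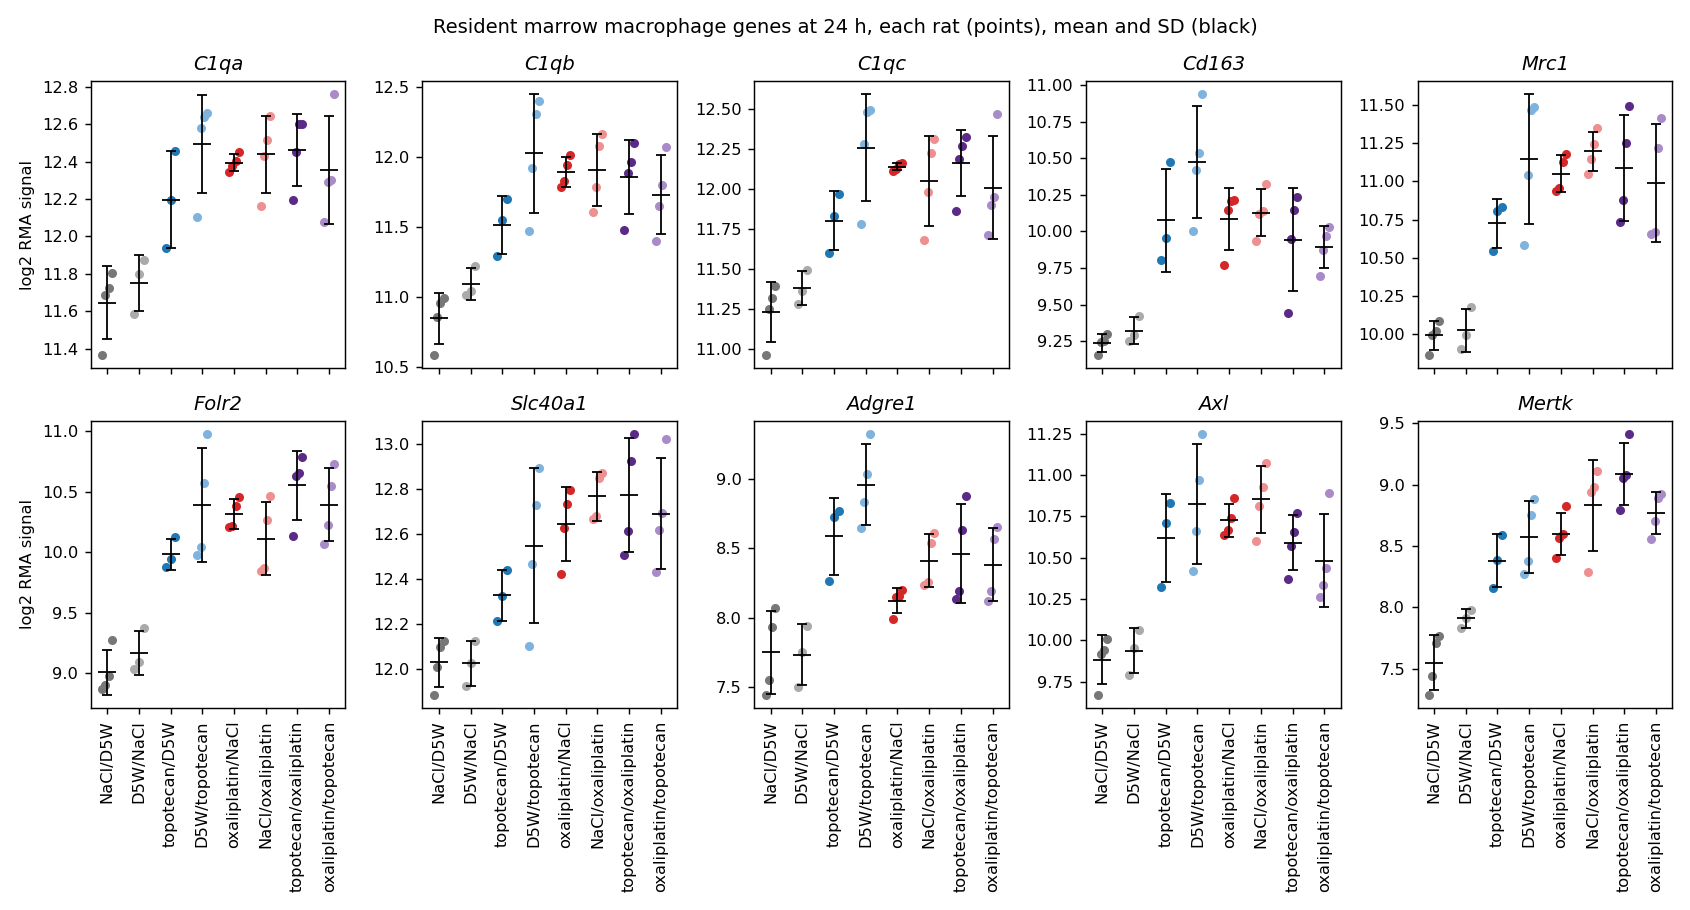
Log2 RMA signal of each of the 10 genes at 24 h, a panel per gene, with points for rats and black bars for the group mean and SD (3 or 4 rats). Treated rats lie above all 7 vehicle rats (grey) in every panel, except rat 89 of D5W/topotecan in Slc40a1 (12.10) and rat 48 of oxaliplatin/NaCl in Adgre1, whose 7.99 lies below the highest rat of the other vehicle group (8.07). The panels have separate vertical scales that do not start at 0.

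At 6 h the rise was partial and fell on the C1q genes, Cd163, Folr2 and, by its probe set of highest mean signal, Slc40a1. Topotecan/D5W had 6 of 10 genes higher (all probe sets 15.1% higher, 25.6% lower), D5W/topotecan 5 (14.1%, 20.4%) and oxaliplatin/NaCl 4 (3.78%, 7.25%). NaCl/oxaliplatin had 2 (5.54%, 9.69%), topotecan/oxaliplatin 6 (17%, 27.6%) and oxaliplatin/topotecan 5 (14.2%, 27.5%). No gene of the set was lower. The medians over the 10 genes were 0.51, 0.45, 0.54, 0.28, 0.42 and 0.40.

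Folr2 was the gene called in all 6 treatments at 6 h, by 0.58 to 0.81. In D5W/topotecan (0.58, adjusted p = 0.00950) this call was lost without any of rats 15, 21, 22, 87, 88, 93 or 94, with an adjusted p of up to 0.0697. It was also lost without the muscle-rich arrays (0.0111), but none of those is in the groups compared, and the difference stayed at 0.58. In oxaliplatin/NaCl it was lost without rat 21, 45 or 46, with up to 0.0404. Folr2 read 8.91, 9.11, 9.17 and 9.00 in NaCl/D5W, 9.40, 9.72, 10.06 and 9.56 in topotecan/D5W, 9.69, 9.56, 9.78 and 9.78 in NaCl/oxaliplatin and 9.55, 9.84, 9.62 and 9.76 in topotecan/oxaliplatin, with no overlap. Cd163, called in 5, changed most: it rose by 1.22 (SE 0.15, 2.33-fold, adjusted p = 2.16e-08) in D5W/topotecan, to 11.00, 10.39, 10.30 and 10.55 from 9.03, 9.46, 9.55 and 9.30. C1qa and C1qb were called in 5 treatments, C1qc in 4 and Slc40a1 in 3, with differences of 0.21 to 0.69 over all 6. The Slc40a1 probe set of mean signal 12.09 was not called in any treatment at 6 h, with differences of -0.23 to 0.41. That of mean signal 8.14 was called in D5W/topotecan only (0.54). Mrc1, Adgre1, Axl and Mertk were called in none. Their differences ran from -0.33 to 0.40 for Mrc1, -0.48 to 0.22 for Adgre1, -0.11 to 0.29 for Axl and -0.49 to 0.58 for Mertk, and of these 24 values limma gave 5 an unadjusted p under 0.05.

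Some 6 h counts turned on few rats. Without rat 52, the muscle-rich array, the count of genes higher in topotecan/oxaliplatin was 2 instead of 6, with C1qa at 0.31 (adjusted p = 0.0557), C1qb at 0.35 (0.0331), C1qc at 0.35 (0.0359) and Cd163 at 0.45 (0.0294). Without the muscle-rich arrays C1qb in oxaliplatin/NaCl was not called either (adjusted p = 0.0114). The arrays left out of that fit were rats 41 and 42 at 24 h, and the 6 h difference stayed at 0.62. In topotecan/oxaliplatin leaving out rat 4, 9, 57 or 58 also left 2 or 3 genes, and leaving out any single rat left at most 5. In topotecan/D5W 3 genes were called in place of 6 without rat 33, in D5W/topotecan 3 in place of 5 without rat 15, 21, 22, 87 or 94, and in NaCl/oxaliplatin 1 in place of 2 without rat 3 or 81. The count of oxaliplatin/NaCl, 4, was 1 without rat 15, 21, 22, 39 or 45 and 0 without rat 46, as it was with only that treatment and its vehicle fitted, 3 rats against 4.

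At 1 h no gene of the set was called higher, and Mertk was lower in 5 of 6 treatments. The counts of genes called higher and lower were 0 and 1 in topotecan/D5W (all probe sets 9.18% and 26%), 0 and 1 in D5W/topotecan (7.67%, 19.5%), 0 and 1 in oxaliplatin/NaCl (0.575%, 0.654%), 0 and 0 in NaCl/oxaliplatin (0.136%, 0.0239%), 0 and 2 in topotecan/oxaliplatin (9.77%, 32.9%) and 0 and 1 in oxaliplatin/topotecan (7.21%, 27.6%). In limma 18 of these 60 values had an unadjusted p under 0.05. In the treatments with topotecan the counts of genes lower lay below the share of all probe sets called lower. In oxaliplatin/NaCl 1 of 10 was lower beside 0.654% of all. The medians over the 10 genes, 0.17, 0.16, -0.09, -0.12, -0.03 and -0.03, lay near those of all probe sets, -0.09, -0.04, -0.01, -0.04, -0.14 and -0.13. Mertk was the gene called lower in each of those 5 treatments, and Mrc1 the other in topotecan/oxaliplatin, by -0.45 (SE 0.15, adjusted p = 0.00845). Without rat 2, 8, 49 or 50 Mrc1 was not called, with an adjusted p of up to 0.0480. The Slc40a1 probe set of mean signal 12.09 was also called lower in topotecan/oxaliplatin (-0.27, adjusted p = 0.00977). The one of highest mean signal, used for the counts, was not (-0.09).

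Mertk read 7.93, 8.17, 7.70 and 7.47 in NaCl/D5W at 1 h. It read 7.39, 6.77, 7.25 and 6.99 in topotecan/D5W and 6.28, 6.32, 6.56 and 7.46 in topotecan/oxaliplatin. All of these treated rats were below the lowest vehicle rat, rat 56 of the combination (7.46) only just. In D5W/NaCl the values were 7.80, 7.58, 7.63 and 7.87. They were 6.72, 7.30, 6.69 and 6.42 in D5W/topotecan, 6.29, 6.49, 6.67 and 7.04 in oxaliplatin/NaCl and 6.57, 6.14, 7.10 and 6.77 in oxaliplatin/topotecan, again without overlap. The differences were -0.72 (SE 0.22) in topotecan/D5W, -0.93 (SE 0.20) in D5W/topotecan, -1.10 (SE 0.20) in oxaliplatin/NaCl, -1.07 (SE 0.20) in oxaliplatin/topotecan and -1.16 (SE 0.22) in topotecan/oxaliplatin, with adjusted p from 2.03e-05 to 0.00630. NaCl/oxaliplatin, at 7.51, 7.49, 7.45 and 7.07, overlapped vehicle and was not called (-0.43, 95% interval -0.87 to 0.00, adjusted p = 0.354). In topotecan/D5W the call was lost without rat 1, 2, 26 or 32, with an adjusted p of up to 0.0358.

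At 1 and 6 h the sample codes place topotecan/D5W and oxaliplatin/NaCl in the same code columns as the vehicle rats. The other 4 treatments lie in other columns at these times, so column and treatment cannot be told apart for them. At 24 h D5W/topotecan and oxaliplatin/topotecan again shared no column with the D5W/NaCl rats, so that column and treatment cannot be told apart for them at this time either, and NaCl/oxaliplatin shared a column with 1 NaCl/D5W rat. The other 3 treatments shared columns with their vehicle. With the column as a random block (limma's duplicateCorrelation, consensus 0.127 and 0.264 in the 2 fits) Mertk at 1 h was called lower in 5 treatments, and the 24 h counts were 9, 8, 9, 10, 10 and 9. This block cannot separate column from treatment where a treatment shares no column with its vehicle.

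**Figure D3:**
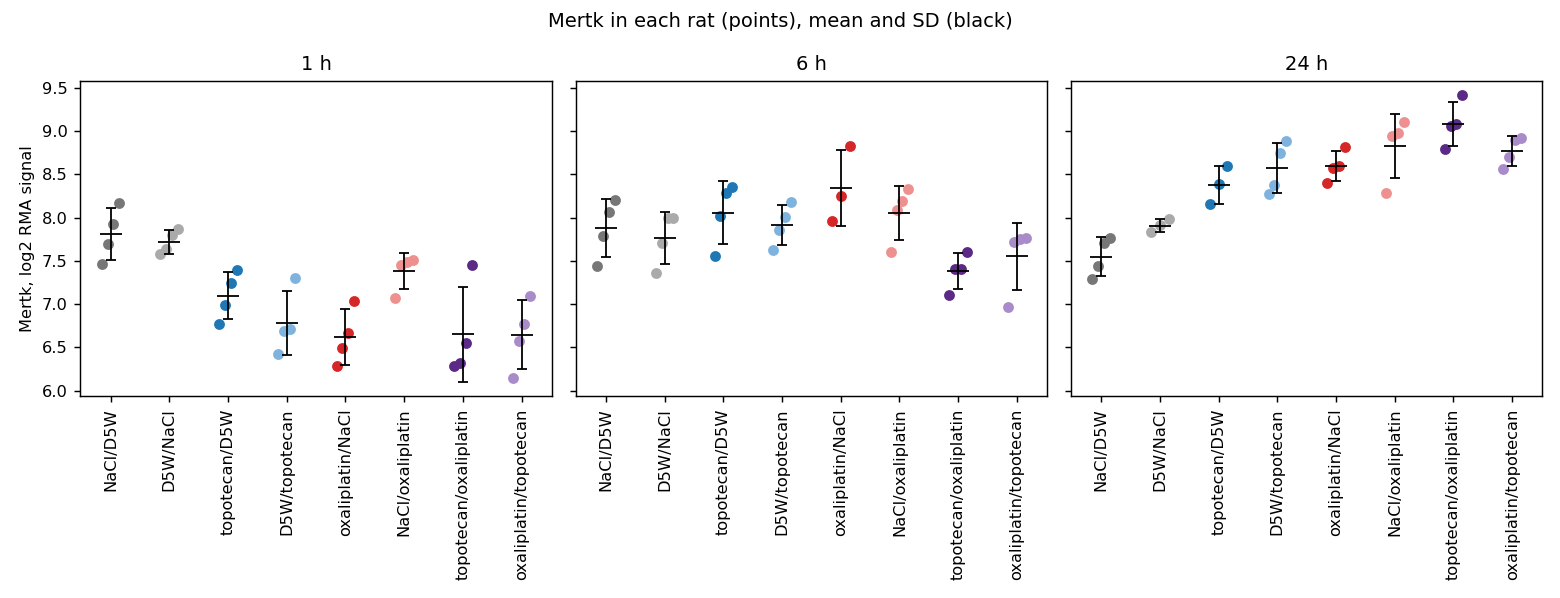
Log2 RMA signal of Mertk in each rat at 1, 6 and 24 h, with the mean and SD of each group in black (3 or 4 rats). Treated rats of 5 groups lie at 7.46 or lower at 1 h, below every rat of their own vehicle group, and all treated rats lie at 8.16 or higher at 24 h, above every vehicle rat of that time.

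The change with time was tested as the effect at 24 h minus the effect at 1 h within a treatment. It was called for 35 of 60 values, all 35 higher at 24 h. By treatment this was 2 genes in topotecan/D5W (21.7% of all probe sets higher), 5 in D5W/topotecan (19.2%), 5 in oxaliplatin/NaCl (11.2%), 9 in NaCl/oxaliplatin (20.8%), 10 in topotecan/oxaliplatin (28.2%) and 4 in oxaliplatin/topotecan (24.1%). Mertk, low at 1 h and high at 24 h, was called in all 6, by 1.55 to 2.70. Mrc1 was called in 5, by 1.20 to 1.62, and C1qa, C1qb and C1qc in 2 each. The rats at each time were different animals.

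Whether the combinations differed from the drugs alone was tested directly. At 24 h topotecan/oxaliplatin exceeded topotecan/D5W in 2 genes (29.6% of all probe sets called in either direction). These were Folr2, by 0.57 (SE 0.14, 95% interval 0.28 to 0.86, adjusted p = 0.00153), and Slc40a1, by 0.45 (SE 0.11, 0.22 to 0.67, adjusted p = 0.00121). Mertk was 0.71 higher (0.23 to 1.18) with an adjusted p of 0.0142. Against NaCl/oxaliplatin 0 of 10 genes were called (15.9% of all), with differences from -0.26 to 0.44. Oxaliplatin/topotecan was lower than D5W/topotecan in Cd163 (16.8% of all called), by -0.58 (SE 0.15, -0.89 to -0.28, adjusted p = 0.00329). Cd163 read 9.87, 9.70, 10.03 and 9.97 in this combination and 10.00, 10.42, 10.94 and 10.53 with the topotecan alone, where the groups met only at 10.03 and 10.00. Against oxaliplatin/NaCl 0 of 10 were called (5.93% of all), with differences from -0.24 to 0.26. Over the 40 values limma gave 11 an unadjusted p under 0.05. None of these 24 h counts stood above the share of all probe sets called in its comparison.

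The calls against topotecan alone rest on small groups. Folr2 was not called without rat 35 (adjusted p = 0.0163), Slc40a1 without rat 29 or 60 (up to 0.0113) and Cd163 without rat 66, 95 or 96 (up to 0.0388). With only the 2 groups of a comparison fitted, none of the 3 was called. At 6 h Mertk was lower in oxaliplatin/topotecan than in oxaliplatin/NaCl (13.4% of all called), by -0.79 (SE 0.22, adjusted p = 0.00690), and not without rat 45, 46 or 64 (adjusted p of up to 0.102). These groups shared no code column, so that column and treatment cannot be told apart there. Among the other 6 h comparisons 0 genes were called against topotecan/D5W (1.32% of all), NaCl/oxaliplatin (17%) and D5W/topotecan (4.09%), and of the 40 values 9 had an unadjusted p under 0.05. At 1 h Mertk was lower in topotecan/oxaliplatin than in NaCl/oxaliplatin (39% of all called), by -0.73 (SE 0.22, adjusted p = 0.00503). Leaving out rat 49, 50, 55, 73, 74 or 79 ended that call (up to 0.0321). No gene was called at 1 h against topotecan/D5W (0% of all), D5W/topotecan (0.239%) or oxaliplatin/NaCl (26.3%), with 10 of 40 values at an unadjusted p under 0.05. The counts at 6 and 1 h did not stand above the share of all either.

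**Figure D4:**
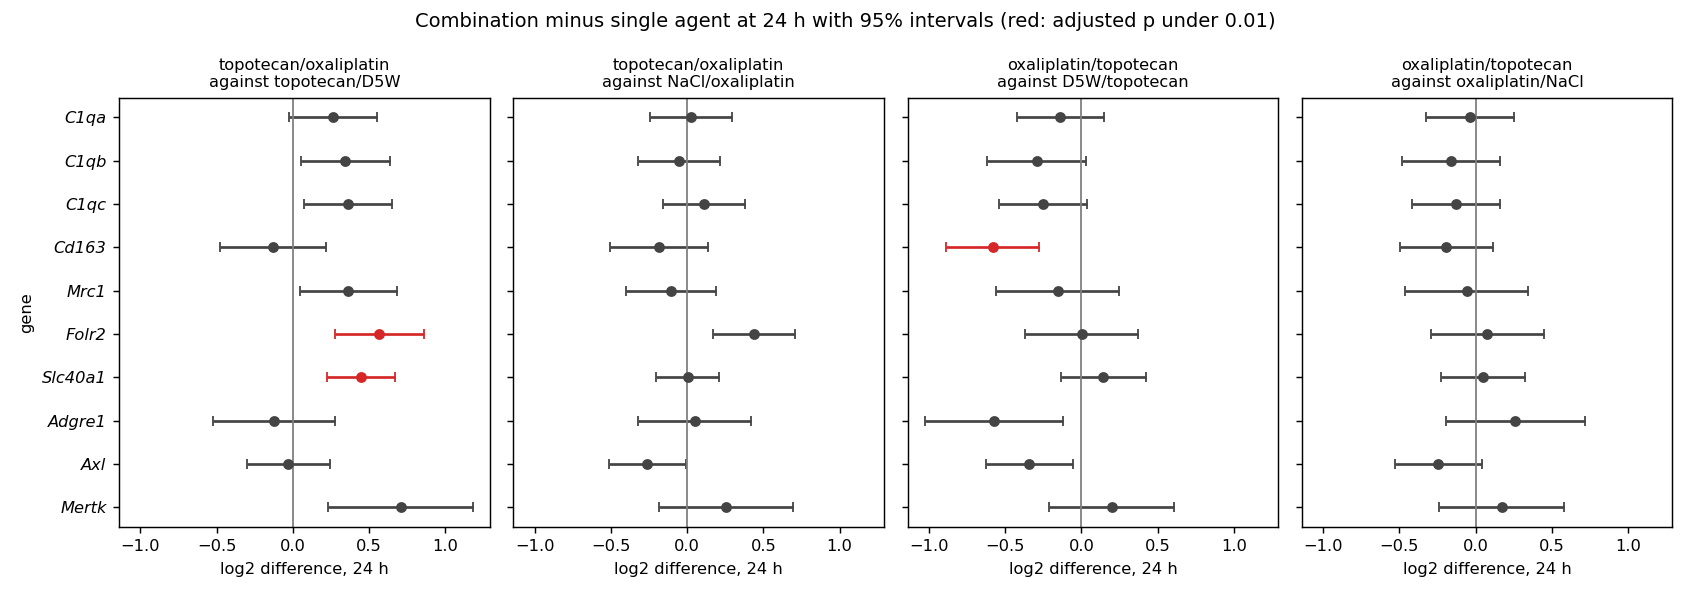
Log2 difference of each combination from each of its single agents at 24 h for the 10 genes, with 95% intervals from limma (3 or 4 rats per group). Intervals in red have an adjusted p under 0.01: Folr2 (0.57) and Slc40a1 (0.45) against topotecan/D5W, and Cd163 (-0.58) against D5W/topotecan.

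Topotecan was also set against oxaliplatin within each fit, where the drugs occupy different places in the sequence. The groups of each pair shared no code column at any time, so that column and drug cannot be told apart in these comparisons. At 1 h Cd163 was higher with topotecan in both pairs, by 0.63 (SE 0.16, adjusted p = 0.00139) in topotecan/D5W against NaCl/oxaliplatin (32.8% of all called) and by 0.55 (SE 0.15, adjusted p = 0.00469) in D5W/topotecan against oxaliplatin/NaCl (19% of all). Mrc1 (0.55, adjusted p = 0.00195) and Axl (0.48, adjusted p = 0.00173) were higher in the former pair, and Adgre1 (0.76, adjusted p = 0.00894) in the latter. Against vehicle at that time none of these values was called, and Cd163 was 0.18 and 0.39 above it with topotecan and differed from it by -0.45 and -0.16 with oxaliplatin. The calls in the latter pair were lost without any of rats 37, 38, 44, 86, 91 or 92 for Adgre1 (adjusted p of up to 0.0600) and rats 38, 43, 44, 85 or 86 for Cd163 (up to 0.0153). In the former pair Cd163 was lost without rat 25 (0.0110) and Mrc1 without rat 80 (0.0168). At 6 h 0 of 20 values were called (14% and 4.72% of all), with 3 at an unadjusted p under 0.05. At 24 h Slc40a1 was lower in topotecan/D5W than in NaCl/oxaliplatin (17.9% of all), by -0.44 (SE 0.11, adjusted p = 0.00210; 0.0196 without rat 29). Adgre1 was higher in D5W/topotecan than in oxaliplatin/NaCl (8.21% of all), by 0.84 (SE 0.22, adjusted p = 0.00830), and leaving out rat 41, 42, 47, 48, 89, 95 or 96 ended that call (up to 0.0528). The counts of genes called between the drugs lay near or below the shares of all probe sets called.

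The order of infusion gave no called difference in the set. Each order was compared as a difference of differences from its own vehicle, with all 8 groups in the fit. At 1 h 0 of 10 genes were called for topotecan (12.2% of all probe sets), oxaliplatin (0%) and the combination (9.85%). At 6 h the counts were again 0 (0%, 0% and 0.00798% of all), and at 24 h 0 (0%, 0% and 0%). In limma, at each time 1 of 30 values had an unadjusted p under 0.05, and the smallest adjusted p was 0.316, 0.717 and 0.473. These intervals were wide. For Mertk at 24 h the order of the combination gave 0.68 with a 95% interval of 0.05 to 1.30 (adjusted p = 0.473), and for C1qb 0.37 with -0.06 to 0.81.

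Other macrophage genes were higher at 24 h as well. Of 15 further genes of resident macrophages measured, 12, 14, 12, 14, 14 and 13 were higher at 24 h in the 6 treatments, in the order used above (topotecan alone, oxaliplatin alone and the combinations, each with its 2 orders), and 0 were lower. Their medians were 0.85, 1.01, 0.77, 1.08, 1.29 and 1.18. For this list and those below, the shares of all probe sets called are those given above for each treatment and time. At 24 h they ran from 16.1% to 25.9% higher and from 17.3% to 35.2% lower. Gpnmb, a glycoprotein of lysosome-loaded macrophages, was called in all 6 by 1.71 to 2.40, and Stab1, a scavenger receptor, by 1.12 to 1.80. Lyve1, a hyaluronan receptor shared with endothelium, rose by 1.15 to 2.34, Apoe, the lipid carrier, by 1.03 to 1.62, and Cd5l, a protein secreted by macrophages, by 1.10 to 1.55. Spic, the transcription factor of red pulp and marrow macrophages that haem induces, had another course. It was called higher in all 6 treatments at 6 h, by 1.11 to 1.89, and in none at 24 h, with values of -0.02 to 0.55. At 6 h the list had 9, 9, 5, 6, 7 and 7 genes higher and 0 lower, and at 1 h 4, 0, 1, 0, 0 and 1 higher and 0, 0, 0, 0, 0 and 1 lower, the last being Csf1r, the receptor for macrophage growth factor (-0.46, adjusted p = 0.000675), named after its value was seen.

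The partners of the TAM receptors were called in part. Among 18 genes for uptake of dying cells, 8, 12, 11, 13, 14 and 11 were higher and 1, 2, 2, 2, 2 and 2 lower at 24 h, with medians of 0.43, 0.65, 0.56, 0.62, 0.78 and 0.68. Gas6, the ligand of Axl and Mertk, rose by 1.34 to 2.10 in all 6 treatments, after values of -0.62 to 0.38 at 6 h, none called. Pros1, the other TAM ligand, rose by 0.61 to 1.63. Tyro3, the TAM receptor outside the set, was called in 5 (0.90 to 1.40) and not in topotecan/D5W (0.24). Nr1h3, which encodes the oxysterol receptor LXRα, was higher in all 6 by 0.97 to 1.57, and Pparg, a lipid-sensing nuclear receptor, by 0.96 to 1.44. Pparg had been lower at 1 h in the 4 treatments with topotecan, by -1.44 to -1.07, as Mertk was. The lipid receptors went down: Cd36 by -1.98 to -0.70 in all 6 and Scarb1 by -1.10 to -0.46 in 5, with -0.11 in topotecan/D5W. Cd36 is also made by erythroid precursors. At 6 h the list had 6, 6, 1, 2, 6 and 3 genes higher and 3, 2, 2, 1, 4 and 4 lower, and at 1 h 2, 0, 0, 0, 1 and 0 higher and 3, 1, 0, 0, 3 and 2 lower.

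Iron genes moved in both directions. Of 15 iron handling partners 2, 3, 5, 6, 5 and 2 were higher and 5, 6, 7, 6, 6 and 6 lower at 24 h, with medians of -0.26, -0.19, -0.04, 0.18, -0.09 and -0.05. Over all probe sets 16.1% to 25.9% were higher and 17.3% to 35.2% lower. Hmox1, the haem oxygenase that frees iron from haem, rose early, by 1.59 to 2.12 in all 6 treatments at 6 h. At 24 h it was called with oxaliplatin alone (0.96 and 1.12) and in topotecan/oxaliplatin (0.45), and the other 3 values were 0.16 to 0.34. The transferrin receptor Tfrc was lower by -2.56 to -1.49, the iron importer Slc11a2 by up to -2.18, the ferrireductase Steap3 by -1.81 to -1.43 and the biliverdin reductase Blvrb by -2.18 to -1.29. All 4 are used by developing red cells, and Tfrc stands in the erythroid list too. At 6 h the counts were 5, 4, 2, 4, 5 and 4 higher and 7, 4, 2, 4, 7 and 5 lower, and at 1 h 2, 0, 1, 0, 0 and 1 higher and 1, 2, 0, 0, 2 and 4 lower.

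Of 13 complement partners of C1q, 2, 4, 4, 9, 5 and 4 were higher and 0, 1, 1, 1, 2 and 2 lower at 24 h, with medians of 0.29, 0.38, 0.37, 0.58, 0.25 and 0.38. Over all probe sets 16.1% to 25.9% were higher and 17.3% to 35.2% lower, and 2 of 13 in topotecan/D5W lay near its 16.1%. C1r, a protease bound by C1q, was called in all 6 by 0.66 to 1.73. C1s, the other protease of the complex, was called in NaCl/oxaliplatin (0.87), topotecan/oxaliplatin (1.84) and oxaliplatin/topotecan (0.91), and was 0.04 to 0.75 higher elsewhere. Serping1, the inhibitor of both proteases, rose in 5 by 0.79 to 1.29, with 0.36 in topotecan/D5W. At 6 h the list had 5, 4, 0, 3, 4 and 3 higher and 1 lower in each treatment, and at 1 h 1, 1, 0, 0, 0 and 1 higher and 1, 0, 0, 0, 1 and 0 lower.

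Genes of other cells that share features with macrophages were read beside the set. The 11 monocyte genes had 2, 3, 3, 3, 5 and 2 higher and 0, 2, 4, 4, 3 and 3 lower at 24 h, with medians of 0.19, -0.06, -0.03, 0.13, -0.00 and 0.10. Over all probe sets 16.1% to 25.9% were higher and 17.3% to 35.2% lower. Ccr2, the chemokine receptor of inflammatory monocytes, was lower by -3.73 to -1.41 in 5 treatments and was -0.54 in topotecan/D5W. Fcnb was lower in the same 5 by -4.56 to -0.91, and Fcgr3a, an Fc receptor of monocytes and macrophages, was higher in all 6 by 1.45 to 2.82. The mean log2 level of the monocyte list ran from 10.58 to 11.00 in vehicle and from 10.27 to 11.13 in treated rats at 24 h. Of 4 osteoclast genes 3, 2, 2, 3, 2 and 3 were higher and 0 lower, with Acp5, the tartrate-resistant phosphatase, at 0.98 to 1.33 where called.

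Stromal and vascular genes rose at 24 h too. Of 13 stromal and bone genes 11, 7, 8, 11, 10 and 8 were higher at 24 h, with medians of 1.10, 1.01, 1.20, 1.15, 1.27 and 1.45, Col3a1 rising by 1.10 to 2.33 and Kitlg, the stem cell factor, by 1.19 to 2.01. The mean log2 level of this list ran from 9.87 to 10.21 in the vehicle rats and from 10.80 to 11.59 in the treated rats. Of 7 endothelial genes 4, 6, 5, 5, 6 and 5 were higher, with medians of 0.49, 0.85, 0.72, 0.72, 1.25 and 0.88, Emcn rising by 0.97 to 2.04 and Kdr by 0.79 to 1.65. Kdr was lower at 1 h in 5 treatments, by -1.05 to -0.59, and was -0.16 in NaCl/oxaliplatin, where 0.0239% of all probe sets were called lower. Mrc1, Axl and Lyve1 are shared with these cells, and the part of stroma and vessels in the macrophage result was not tested.

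The counts of granulocyte precursor genes varied, with 0, 0, 3, 4, 0 and 0 of 6 higher and 1, 1, 0, 0, 4 and 0 lower. Of 4 B cell genes Ms4a1 was higher at 24 h in the 4 treatments with topotecan (0.88 to 1.20), and Blnk was lower in oxaliplatin/NaCl, NaCl/oxaliplatin and topotecan/oxaliplatin (-0.92 to -0.77). All 11 skeletal muscle genes were higher in oxaliplatin/NaCl, which holds rats 41 and 42, with a median of 1.48, and none in the other treatments at 24 h. Without the muscle-rich arrays 8 in place of 9 macrophage genes were called in oxaliplatin/NaCl. Within erythroid genes the exception was Alas2, the erythroid haem synthesis enzyme, at 0.02 to 0.43, while Car1 was lower by -6.03 to -2.03 and Rhag by -3.77 to -2.49. Erythroid genes called lower numbered 7, 2, 3, 2, 6 and 5 at 6 h and 2, 1, 0, 0, 1 and 1 at 1 h.

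**Figure D5:**
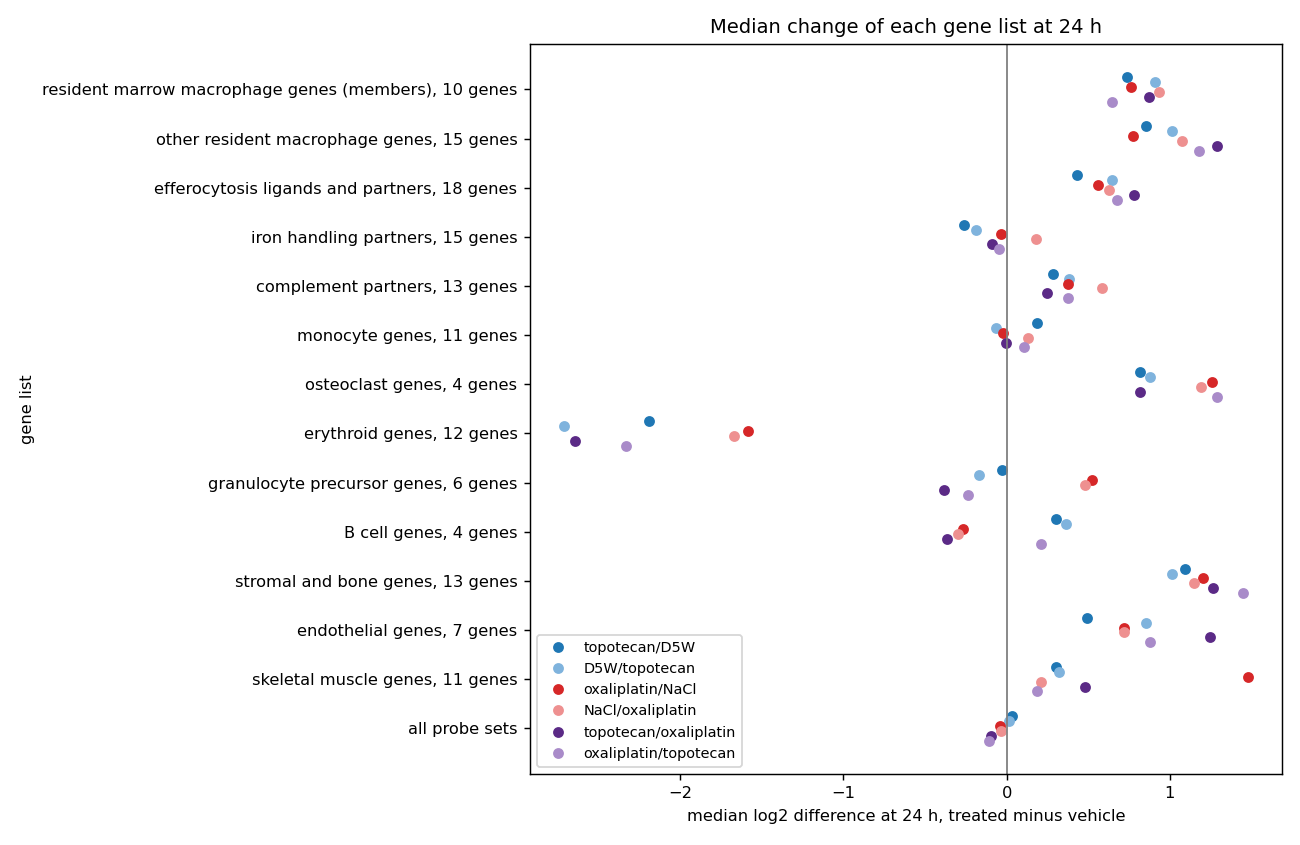
Median log2 difference from vehicle at 24 h over each gene list (rows, with the number of genes measured) for the 6 treatments (colours). The macrophage, stromal and endothelial lists lie above 0 in all treatments, as do the efferocytosis (uptake of dying cells) and complement lists. The erythroid list lies at -2.71 to -1.58, and all probe sets lie at -0.11 to 0.03.

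Across the 24 group means the 10 genes followed each other unevenly, as a description of groups that share time and treatment. C1qa, C1qb and C1qc had a Pearson r of 0.961, 0.958 and 0.953 with the mean of the set, and Cd163 the lowest, 0.785. The genes outside the set whose group means were most like that mean had r of 0.960 to 0.972. In falling order of r they were Gngt2, Ccdc80, Spns2, Sgce, Acp2, Prr5l, Colec12, Aco1, Clec4a3, Pde2a, Cavin3 and Cd5l. Among them Acp2 is the lysosomal acid phosphatase, Aco1 the iron regulatory protein and aconitase of the cytosol, Cd5l a macrophage product and Clec4a3 a lectin-like receptor of myeloid cells. Cavin3, a coat protein of caveolae, had the largest 24 h differences of the 12, 2.03 to 3.30. Each was called higher at 24 h in all 6 treatments, except Colec12, which was called in 5.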

How the data were processed

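RNA of femoral marrow, primed with oligo-d(T), was hybridised to Affymetrix rat genome expression arrays, 1 per rat. The deposited values are log2 signals: the authors left out 1 outlier array, normalised 93 arrays by RMA and kept probe sets that passed the pvac filter. The series holds 12560 probe sets, of which 28 control probe sets were removed and 12532 tested. GEO's platform annotation gave 10002 probe sets 1 symbol, 292 several and 2238 none, and genes were named only from the first kind. Array data give no read depth, so that the number of rats limits precision.

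Differences were estimated on the log2 scale with limma 3.58.1 in R 4.3.3, fitting the 4 groups that share an infusion place and vehicle at all 3 times together, with Benjamini-Hochberg adjustment over all probe sets of a comparison and a threshold of 0.01. The scripts were tested on simulated data. The text gives the 10 genes in every comparison, the called genes of largest change from each further list, and the 12 genes of most similar pattern. The genes and lists were chosen with earlier results of these data known. Alternatives covered thresholds, scaling, filters, the samples fitted, blocks, probe sets and each rat left out. Code columns are the leading parts of the sample codes in the labels. Promoters came from RefSeq, assembly GRCr8.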

Additional observations from a re-analysis of the deposited data

Results flagged for a closer look

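In a group of 4 rats a value was marked where its distance from the nearest other rat was a larger share of the group's range than Dixon's test allows at the 95% level. Of 210 sets of values, each of 1 gene in 1 group of 4 rats, 11 were marked, 5.24%, where chance marks 5%. The sets share rats between genes, so they are not 210 separate groups. Rat 16 of D5W/NaCl at 6 h stood above its group in C1qa (11.69, others 11.26 to 11.33) and C1qb (10.88, others 10.43 to 10.47), and rat 49 of topotecan/oxaliplatin at 1 h likewise in C1qa (12.25, others 11.67 to 11.75) and C1qb (11.23, others 10.89 to 10.94). Rat 2 of NaCl/D5W at 1 h stood above in C1qc (11.26, others 11.20 to 11.21) and rat 37 of oxaliplatin/NaCl at 1 h in Cd163 (9.33, others 9.11 to 9.13). Values below their group were those of rat 89 of D5W/topotecan at 24 h in C1qa (12.10, others 12.58 to 12.66), rat 48 of oxaliplatin/NaCl at 24 h in Cd163 (9.77, others 10.15 to 10.21) and rat 92 of D5W/topotecan at 1 h in Mrc1 (9.41, others 10.22 to 10.29). In Mertk they were rat 64 of oxaliplatin/topotecan at 6 h (6.97, others 7.72 to 7.77) and rat 80 of NaCl/oxaliplatin at 1 h (7.07, others 7.45 to 7.51).

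The effect of a treatment differed between 1 and 24 h for 35 of 60 gene and treatment pairs, by limma's test of that difference at an adjusted p under 0.01, and all 35 were higher at 24 h. The share of all probe sets called higher by that test ran from 11.2% in oxaliplatin/NaCl to 28.2% in topotecan/oxaliplatin. In topotecan/D5W, where 2 of 10 genes were called, it was 21.7%, so that count lay near the share of all. The log2 differences between the times were 0.77 for Folr2 and 1.55 for Mertk in topotecan/D5W. In D5W/topotecan they were 0.76 for Cd163, 1.20 for Mrc1, 1.01 for Folr2, 0.76 for Axl and 1.60 for Mertk, and in oxaliplatin/NaCl 0.92 for Cd163, 1.34 for Mrc1, 0.92 for Folr2, 0.94 for Axl and 1.79 for Mertk. In NaCl/oxaliplatin they were 0.88 for C1qa, 1.08 for C1qb, 0.94 for C1qc, 1.34 for Cd163, 1.62 for Mrc1, 1.18 for Folr2, 0.81 for Slc40a1, 1.17 for Axl and 1.72 for Mertk. All 10 genes were called in topotecan/oxaliplatin, with 0.62 for C1qa, 0.81 for C1qb, 0.73 for C1qc, 1.10 for Cd163, 1.55 for Mrc1, 1.36 for Folr2, 0.84 for Slc40a1, 1.23 for Adgre1, 0.67 for Axl and 2.70 for Mertk. In oxaliplatin/topotecan they were 1.29 for Mrc1, 0.93 for Slc40a1, 1.32 for Adgre1 and 1.93 for Mertk.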

How the results depend on the processing

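Among the 180 differences from vehicle, none that was called in the main or the alternative setting changed sign under that alternative. Values not called could change sign: with the second Slc40a1 probe set oxaliplatin/topotecan at 6 h was -0.23 in place of 0.21. Over 93 fits that each left out 1 rat, 2653 of 2790 values kept their call, 125 lost it and 12 gained it. The 24 h counts against vehicle stayed within 1.5 times of those given, except where stated. Counts of genes called that moved further follow, with treatments against vehicle unless a comparison is named. At an adjusted p under 0.05 the 1 h counts were 2 in D5W/topotecan, 4 in topotecan/oxaliplatin, 3 in oxaliplatin/topotecan, 1 for topotecan/oxaliplatin against topotecan/D5W, 2 against NaCl/oxaliplatin and 1 for oxaliplatin/topotecan against D5W/topotecan. The 6 h counts were 2 for topotecan/oxaliplatin against NaCl/oxaliplatin, 1 and 2 for oxaliplatin/topotecan against D5W/topotecan and oxaliplatin/NaCl, and 1 for D5W/topotecan against oxaliplatin/NaCl. The 24 h counts were 4 and 1 for topotecan/oxaliplatin against topotecan/D5W and NaCl/oxaliplatin and 3 for topotecan/D5W against NaCl/oxaliplatin. Among settings chosen after seeing the data, that threshold gave 6, 10, 9 and 7 genes for the effect at 24 h minus that at 1 h in topotecan/D5W, D5W/topotecan, oxaliplatin/NaCl and oxaliplatin/topotecan, a second quantile normalization gave 8 in oxaliplatin/NaCl, and infusion order gave 0 without the muscle-rich arrays. A fold above 2 left 0, 0 and 1 at 1 h in topotecan/D5W, D5W/topotecan and topotecan/oxaliplatin, 0, 1, 0, 0, 0 and 0 at 6 h and 0, 4, 2, 4, 4 and 1 at 24 h. Second quantile normalization gave 1 in topotecan/oxaliplatin, 2 in oxaliplatin/topotecan and 2 for topotecan/oxaliplatin against NaCl/oxaliplatin at 1 h, 0 for oxaliplatin/topotecan against oxaliplatin/NaCl and 1 for D5W/topotecan against oxaliplatin/NaCl at 6 h, and 0 for oxaliplatin/topotecan against D5W/topotecan at 24 h. Median centring gave 4 in oxaliplatin/topotecan at 1 h. Testing only probe sets above the median, which leaves out Mertk and Adgre1, gave 0, 0, 0, 1 and 0 at 1 h in all treatments but NaCl/oxaliplatin. All 8 groups in a fit gave 1 and 3 in the combinations at 1 h, and pooled vehicles gave 2 in oxaliplatin/topotecan at 1 h and 5 in NaCl/oxaliplatin at 6 h. With only the groups compared, fewer rats inform the spread: the counts were 0 in topotecan/D5W, 1 in topotecan/oxaliplatin, 0 for topotecan/oxaliplatin against NaCl/oxaliplatin and 1 for D5W/topotecan against oxaliplatin/NaCl at 1 h. At 6 h they were 3, 0, 1 and 3 in D5W/topotecan, oxaliplatin/NaCl, NaCl/oxaliplatin and topotecan/oxaliplatin, 1 for topotecan/oxaliplatin against NaCl/oxaliplatin and 0 for oxaliplatin/topotecan against oxaliplatin/NaCl, and at 24 h 0 for each called combination and drug pair. The animal set as a block gave 2 in oxaliplatin/topotecan at 1 h, and the code column as a random block 1 in topotecan/oxaliplatin at 1 h and 3 in both D5W/topotecan and topotecan/oxaliplatin at 6 h. The animal sets fitted alone, with at most 2 rats a group, gave in the first set 0 at 1 h in topotecan/D5W, D5W/topotecan and oxaliplatin/NaCl and 3 in oxaliplatin/topotecan, 2, 2, 0, 1, 3 and 1 at 6 h and 4 in oxaliplatin/topotecan at 24 h. In the second they gave 0 in topotecan/D5W, oxaliplatin/NaCl and topotecan/oxaliplatin at 1 h, 2, 0, 1 and 3 in D5W/topotecan, oxaliplatin/NaCl, NaCl/oxaliplatin and topotecan/oxaliplatin at 6 h and 1 in both topotecan/D5W and oxaliplatin/NaCl at 24 h. The second Slc40a1 probe set gave 1 in NaCl/oxaliplatin at 6 h, and leaving out the muscle-rich arrays 2 in topotecan/oxaliplatin at 6 h. The causes of these moves were not tested, beyond the fewer rats or probe sets named. Leaving out 1 rat at a time gave 0 to 1 in topotecan/D5W, 1 to 3 in topotecan/oxaliplatin and 1 to 2 in oxaliplatin/topotecan at 1 h, and at 6 h 3 to 6 in topotecan/D5W, 3 to 5 in D5W/topotecan, 0 to 5 in oxaliplatin/NaCl, 1 to 2 in NaCl/oxaliplatin and 2 to 5 in topotecan/oxaliplatin. It gave 1 to 3 for topotecan/oxaliplatin against topotecan/D5W at 24 h and 0 to 1 for 9 further combination and drug comparisons, the 0 counts gaining a gene without rat 67 at 1 h (oxaliplatin/topotecan against D5W/topotecan), rat 75 at 6 h or rats 59 or 84 at 24 h (topotecan/oxaliplatin against NaCl/oxaliplatin). At 24 h against vehicle the ranges were 6 to 9, 8 to 10, 8 to 9, 9 to 10, 10 to 10 and 7 to 9. No paired analysis was possible because every rat has a number of its own and groups share none. RMA signals are relative, dim probe sets understate change, and a whole-marrow level does not separate cell number from RNA per cell.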
